A study of Mus musculus with 24 samples.

Results

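The Trim genes encode the tripartite motif proteins, a large family of E3 ubiquitin ligases, and their messenger RNA was followed in mouse dendritic cells of 3 strains with and without bacterial lipopolysaccharide (LPS). Members were taken by name alone, as every gene symbol made of Trim and a number, with or without a copy letter. This gave 68 of the 55291 symbols in the deposited table, and no expression value was used to choose them. Of these 68 members, 41 reached 1 TPM (transcripts per 1000000, the deposited unit) in at least 4 libraries and were tested. The other 27 had group means of at most 0.672 TPM, and 6 of them were at 0 in all 24 libraries.

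Most Trim proteins carry a RING finger that recruits a ubiquitin-loaded conjugating enzyme, followed by B-box zinc fingers and a coiled coil that joins the molecules into dimers or larger assemblies. The C-terminal domain picks the target: a PRY-SPRY domain in many immune members, a PHD finger and bromodomain in the nuclear co-repressors, and NHL repeats or a transmembrane segment in others. In macrophages and dendritic cells many PRY-SPRY members are known as interferon-induced genes, which cells switch on after Toll-like receptor 4 has sensed LPS, and several act on viral capsids or on the RIG-I and STING pathways.

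Cells were grown from bone marrow for 7 days with GM-CSF and then left untreated or given LPS of E. coli 0111:B4 at 10 ng/ml for 6 hours. The groups are B6 untreated, B6 with LPS, C57 untreated, C57 with LPS, PWD untreated and PWD with LPS, each with 4 libraries. The design text gives 4 individual mice per strain, and the untreated and LPS libraries of a number were taken as the same mouse. PWD mice are inbred and descend from wild Mus musculus musculus, whereas B6 and C57 are labels of classical laboratory mice whose difference from each other the sources used here do not give. Reads of all strains were set against mm10, the genome of C57BL/6J, per the submitters' processing notes, and the part that sequence differences of PWD play in the levels below was not tested.

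The dendritic cell label was checked against 12 markers, of which 8 to 11 reached a mean of 1 TPM in each group. Itgax, the CD11c integrin, had group means of 238 to 340 TPM, and the MHC class II chaperone Cd74 had 1810 to 5790 TPM, while Flt3, the receptor of another dendritic cell growth factor, stayed at a mean of 0.483 TPM or less. The 12 markers summed to 6810 to 9030 TPM in the B6 libraries, 2520 to 3430 TPM in C57 and 3160 to 5450 TPM in PWD. Most of each sum was Cd74 and the MHC class II gene H2-Ab1. In untreated B6, C57 and PWD cells Cd74 had means of 5790, 2000 and 3130 TPM and H2-Ab1 1470, 486 and 802 TPM. Itgax was at 340, 308 and 321 TPM in the same groups. Cultures of this kind also hold macrophages and neutrophils: all 10 macrophage and monocyte markers reached 1 TPM in each group, and their sum was 388 to 569 TPM in the PWD libraries and 1410 to 2170 TPM in the B6 libraries. Of 9 neutrophil and precursor markers 7 to 9 reached 1 TPM, with sums of 804 to 4270 TPM. The sum of the 7 markers of eosinophils, mast cells and basophils moved with strain. It was 47 to 209 TPM in the B6 libraries, 229 to 504 TPM in C57 and 567 to 1120 TPM in PWD, with 2 to 4 of the markers at a mean of 1 TPM or more. The largest part was Ear2, at 148, 411 and 874 TPM in untreated B6, C57 and PWD cells. Among the markers the eosinophil granule gene Prg2 had a mean of 1.66 TPM in untreated B6 and 130 TPM in untreated PWD cells, and the eosinophil peroxidase Epx 0.179 and 26.6 TPM. Mcpt8 and Cpa3 did not follow them, at 1.19, 4.77 and 1.41 TPM and at 0.513, 1.73 and 0.428 TPM in untreated B6, C57 and PWD cells. The 6 markers of B cells and plasmacytoid dendritic cells summed to 96.5 to 393 TPM in B6, 90.3 to 246 TPM in C57 and 32 to 123 TPM in PWD. None of the 5 T and NK cell markers reached a mean of 1 TPM in any group. Structural RNA took 28.8% to 44.2% of TPM, and in all 6 groups Xist was near 0 in the mice numbered 1 and 2 and at least 41.9 TPM in those numbered 3 and 4. In bulk samples such as these, fewer cells of a type and less RNA per cell cannot be told apart, and the part of cell composition in the strain differences was not tested.

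The family is spread over the genome, but 16 members lie on chromosome 7 and 14 of those were tested. On mm10, Trim21 lies at chr7:102557921-102565486 and Trim68 at chr7:102677582-102687327. Further along stand Trim6, Trim34a (chr7:104244457-104262234), Trim5 (chr7:104263386-104288094), Trim12a (chr7:104299894-104315466), Trim34b (chr7:104329471-104336909), Trim12c (chr7:104338754-104353362), Trim30b (chr7:104355382-104369884), Trim30c (chr7:104382065-104400837), Trim30a (chr7:104409025-104465193) and Trim30d (chr7:104470014-104507849). The Trim5, Trim12 and Trim30 genes are products of local duplication in rodents, so their transcripts share sequence. Of all 50-base windows of the Trim34b transcripts, 56.8% also occurred in Trim34a, and 39.8% of those of Trim34a occurred in Trim34b. Trim5 shared 36.3% and Trim12c 33.0% of their windows with other genes, against 10.4% for Trim12a, 7.49% for Trim30d, 5.98% for Trim30a and less than 1% for Trim30b and Trim30c. The sources used here do not say how the authors' counting divided reads that fit several copies, so values of single copies, above all those of Trim34a, Trim34b, Trim5 and Trim12c, are uncertain, and sums over copies are given beside them.

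Sequence around the start of these genes is shown because an interferon-stimulated response element is the docking site of the IRF and STAT factors that drive interferon-induced genes. The letters GAAANNGAAA, the paired GAAA core of such an element, were searched on both strands of RefSeq promoters (GRCm38.p6), each from 250 bases before to 50 after a start. They occurred in 3.44% of 32851 promoters and in 3.99% of 27025 genes. Of the 41 tested members 31 had a promoter in the table, and 9 of those held a match: Trim2, Trim5, Trim12a, Trim12c, Trim21, Trim26, Trim30a, Trim30d and Trim34a. Each line below gives 30 bases, 5′ to 3′ along the gene's strand, with the match in capitals (matches on the opposite strand read TTTCNNTTTC).
Trim12a, chr7:104315466-104315495, minus strand: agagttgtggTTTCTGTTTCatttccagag
Trim5, chr7:104288136-104288165, minus strand: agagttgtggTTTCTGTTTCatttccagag
Trim12c, chr7:104353359-104353388, minus strand: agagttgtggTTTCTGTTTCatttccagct
Trim30a, upstream start, chr7:104465210-104465239, minus strand: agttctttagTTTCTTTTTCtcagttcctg
Trim30a, second start, chr7:104446104-104446133, minus strand: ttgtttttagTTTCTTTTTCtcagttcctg
Trim30d, chr7:104507871-104507900, minus strand: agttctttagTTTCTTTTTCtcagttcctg
Trim34a, chr7:104244457-104244486, plus strand: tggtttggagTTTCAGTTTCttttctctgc
Trim21, chr7:102565447-102565476, minus strand: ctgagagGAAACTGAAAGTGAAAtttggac
Trim26, chr17:36836979-36837008, plus strand: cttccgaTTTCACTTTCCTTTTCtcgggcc
Trim2, chr3:84212791-84212820, minus strand: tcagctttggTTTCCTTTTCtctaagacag

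Some copies shared these letters and others lacked them: the promoters of Trim30b, Trim30c and Trim34b held no match. The stretches of Trim12a and Trim5 did not differ at any of 30 bases, and that of Trim12c differed from them at 2. The stretch at the upstream start of Trim30a and that of Trim30d were also the same, and the one at the second start of Trim30a differed from both at 4 bases. Identity was also taken over whole promoter windows, aligned end to end, with gaps counted as differences. It was 90.8% for Trim30a and Trim30d, 44.9% for Trim30c with each of them and 49.9% for Trim30b with Trim30a. The Trim30c window held a stretch close to that of Trim30a and Trim30d, but farther before its start and without the exact motif letters. Among the Trim12 and Trim5 windows it was 82.8% for Trim12c and Trim5, 72.9% for Trim12a and Trim12c, and 67.1% for Trim12a and Trim5. For Trim34a and Trim34b it was 52.2%. The windows are placed by the annotated starts, and the middle of the match lay at 14 bases from the start in Trim12a, -24 in Trim12c and -44 in Trim5. Such shifts lower the percentage, so these values do not rank how alike the copies are in sequence. Trim21 and Trim26 each held 2 overlapping matches. A second motif, GGGANTTTCC, a form of the site of NF-kappaB, occurred in 0.411% of all promoters and in 0 of the 31 members. A match describes letters in the reference genome and does not show that a factor binds there, and no match says only that these letters are not in this window.

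After LPS, 14 of the 41 tested members rose in B6, 14 in C57 and 14 in PWD. Changes are differences of log2(TPM + 1), which understate the change of genes near 1 TPM, and a change was called where limma gave a Benjamini-Hochberg adjusted p under 0.05 over all 13246 symbols tested. Over all those symbols 11.9% were called higher in B6, 10.4% in C57 and 11.1% in PWD, against 34.1% of the members in each strain. In the other direction 21 members fell in B6, 19 in C57 and 19 in PWD, which is 51.2%, 46.3% and 46.3% of members beside 59.7%, 52.2% and 52.4% of all symbols. The member medians were -0.27, -0.17 and -0.21, and those of all symbols -0.43, -0.32 and -0.32.

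The number of fallen members moved with how the libraries were scaled. TPM are shares of a fixed total, and the part of this in the counts was not tested. Median-of-ratios scaling brought the median of all symbols to 0, -0.03 and 0, and quantile normalization was tried as well. With the median-of-ratios scaling 16 members were higher and 12 lower in B6, 20 and 6 in C57, and 16 and 9 in PWD. Of all symbols, that scaling called 30.8% higher and 30.7% lower in B6, 24.5% and 26.9% in C57, and 27.1% and 26.2% in PWD. With quantile normalization the members higher and lower were 18 and 11 in B6, 19 and 6 in C57, and 16 and 9 in PWD, beside 25% and 36.1%, 20.6% and 31.3%, and 21.7% and 32% of all symbols. The share of all symbols called higher was thus larger under both of these scalings than on TPM as deposited. Across all 3 strains, 13 members were called higher on TPM as deposited and remained so under both other scalings. These were Trim12c, Trim13, Trim14, Trim21, Trim25, Trim26, Trim30a, Trim30b, Trim30c, Trim30d, Trim34a, Trim36 and Trim56. On TPM as deposited 15 members were called lower in all 3 strains, but only Trim28, Trim59 and Trim65 were so under all 3 scalings. Of all symbols, 6.2% were called higher and 39.3% lower in all 3 strains on TPM as deposited, 16.8% and 15.6% by median-of-ratios scaling, and 12.5% and 20.2% by quantile normalization.

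**Figure D1:**
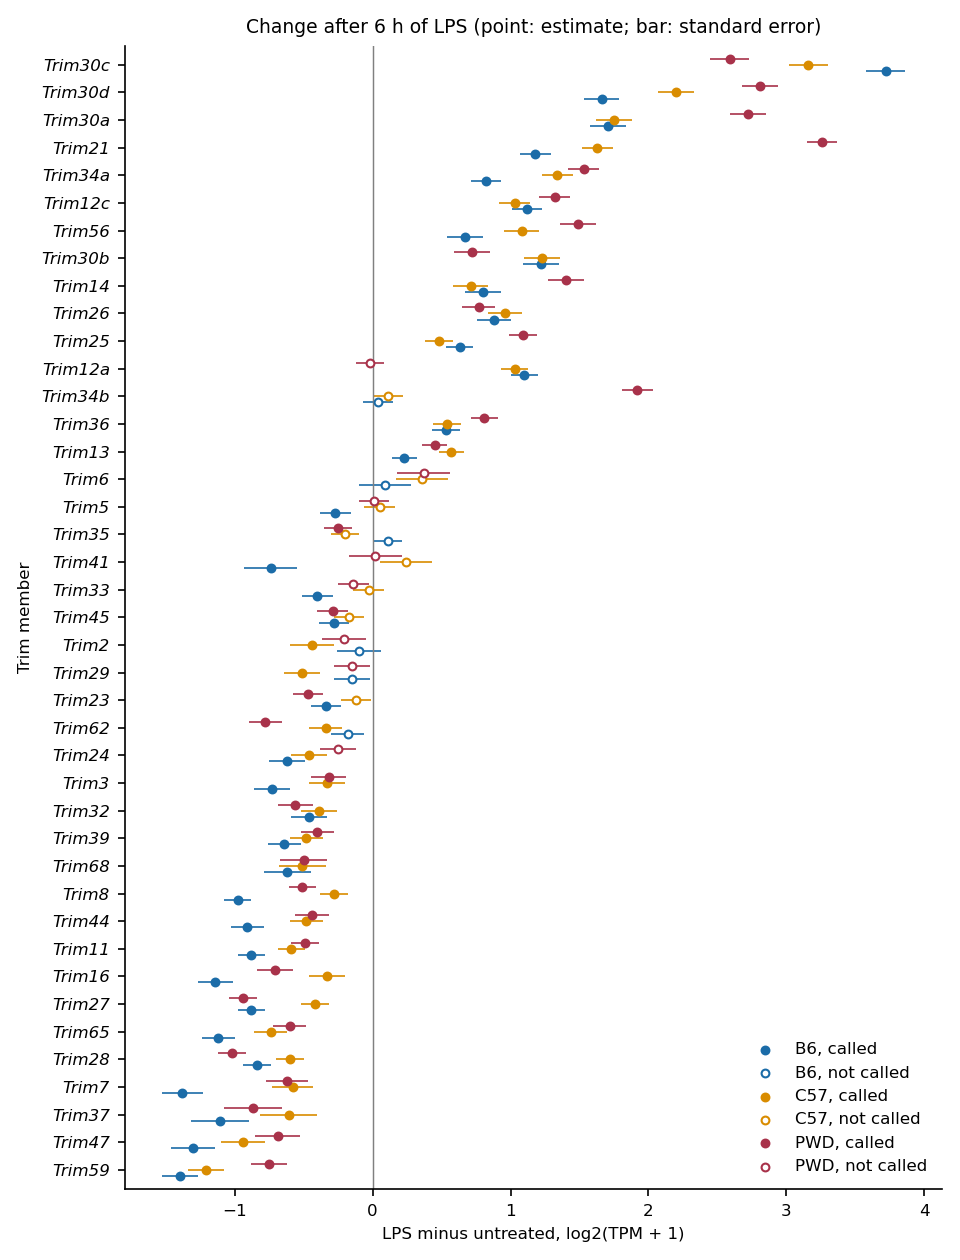
Change of the 41 tested Trim members after 6 hours of LPS, as the difference of log2(TPM + 1) with its standard error, in B6 (blue), C57 (orange) and PWD (red); filled points are called at an adjusted p under 0.05. Trim30a, Trim30c, Trim30d and Trim21 lie to the right of 1 in all 3 strains, Trim12a and Trim34b differ between strains, and the members below 0 lie within 1.4 of it.

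In the chromosome 7 group 8 of 12 tested members rose in each strain, beside 11.9%, 10.4% and 11.1% of all symbols in B6, C57 and PWD. The group medians were 1.11 in B6, 1.13 in C57 and 1.42 in PWD, beside -0.43, -0.32 and -0.32 over all symbols. In the same group 2 members were called lower in B6, 1 in C57 and 1 in PWD, beside 59.7%, 52.2% and 52.4% of all symbols. Median-of-ratios scaling called 0 lower in each strain and 9, 10 and 9 higher, beside 30.8%, 24.5% and 27.1% of all symbols called higher. Trim30a encodes a PRY-SPRY protein known to restrain NF-kappaB by acting on TAB2 and TAB3 in mouse macrophages. In B6 it stood at 90.5, 63.6, 77.5 and 108 TPM in untreated cells and at 275, 254, 294 and 276 TPM after LPS. In C57 the values were 59.8, 65.8, 54.3 and 61.9 TPM untreated and 199, 191, 222 and 210 TPM with LPS. PWD cells began at 13.9, 15.4, 19 and 21 TPM and reached 99.7, 133, 125 and 118 TPM. Within each strain the groups did not overlap, and the PWD cultures with LPS only reached the range above the highest untreated B6 culture in 3 of 4 mice. The change of Trim30a was 1.71 (SE 0.13, adjusted p = 9.14e-12) in B6, 1.75 (SE 0.13, adjusted p = 1.75e-11) in C57 and 2.72 (SE 0.13, adjusted p = 1.1e-15) in PWD.

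Trim30c, a neighbouring copy whose function is not well known, had the largest change among members in B6 and C57. Its levels in B6 were 8.49, 7.14, 9.1 and 10.9 TPM untreated and 123, 127, 138 and 125 TPM with LPS. In C57 they were 7.42, 7.79, 6.13 and 7.4 TPM and then 64.8, 72.6, 76.3 and 74.5 TPM. In PWD they were 1.08, 1.43, 1.74 and 2.71 TPM and then 12.6, 17.1, 16.9 and 14.5 TPM. No untreated culture reached a treated one of its strain, and the treated groups stood apart from each other in the order B6, C57, PWD. Trim30c changed by 3.72 (SE 0.14, adjusted p = 6.49e-18) in B6, 3.16 (SE 0.14, adjusted p = 4.3e-16) in C57 and 2.59 (SE 0.14, adjusted p = 8.9e-15) in PWD.

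Trim30d rose as well, from 39.7 to 67.4 TPM in untreated B6 cells to 156 to 176 TPM with LPS, and from 25.5 to 36.5 TPM to 135 to 144 TPM in C57. In PWD its 4 untreated cultures were at 1.1, 1.6, 2.1 and 1.45 TPM and the treated ones at 13.3, 19.5, 17.8 and 17 TPM, all below every untreated culture of B6 and C57. The changes of Trim30d were 1.66, 2.20 and 2.81 in B6, C57 and PWD (SE 0.13 in each). Trim30b was the lowest of the copies: its group means went from 4.27 to 11.3 TPM in B6, from 3.33 to 9.14 TPM in C57 and from 1.74 to 3.5 TPM in PWD, changes of 1.22, 1.23 and 0.72. Summed over the Trim30 copies, means rose from 150 ± 31.8 to 580 ± 30.1 TPM in B6, from 101 ± 9.99 to 425 ± 21.4 TPM in C57 and from 22.4 ± 4.6 to 155 ± 19.6 TPM in PWD (SD, n = 4). The Trim30 copies made up 20.9% of all member TPM in untreated B6 cells and 46.1% after LPS, 15.5% and 38.8% in C57, and 4.76% and 23% in PWD.

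Trim21 is a cytosolic receptor for antibody-coated virus particles, binding the Fc part of IgG through its PRY-SPRY domain. It stood at 25.8, 23.4, 24.7 and 26 TPM in untreated B6 cells and 58.9, 61.6, 56.7 and 54.6 TPM after LPS. C57 cells gave 21.4, 30.1, 17.3 and 19.4 TPM and then 59.9, 71.1, 74.3 and 70.3 TPM. PWD cells gave 6.61, 7, 6.27 and 7.15 TPM and then 64.2, 79.2, 72.8 and 76.6 TPM. Untreated PWD cultures were below every other culture, while the treated ones were among the highest and overlapped those of C57. The change of Trim21 was 1.18 (SE 0.11, adjusted p = 7.85e-10) in B6, 1.63 (SE 0.11, adjusted p = 5.67e-12) in C57 and 3.26 (SE 0.11, adjusted p = 1.9e-18) in PWD, where it was the largest of any member.

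The Trim12 and Trim5 genes are the mouse relatives of primate TRIM5, whose protein binds the capsids of incoming retroviruses. Trim12c rose in every strain, from a mean of 20.4 to 45.4 TPM in B6, from 13.4 to 28.3 TPM in C57 and from 7.77 to 20.7 TPM in PWD. Its changes were 1.12, 1.03 and 1.32 (SE 0.11 in each). Trim12a rose in B6, where untreated cultures held 21.8, 19.2, 18.9 and 20.2 TPM and treated ones 39.7, 52.5, 39.9 and 44.4 TPM, a change of 1.10 (SE 0.10, adjusted p = 1.54e-10). It rose in C57 from 16.7, 18, 17.4 and 15.1 TPM to 31.2, 33.7, 36.5 and 39.9 TPM, a change of 1.03 (SE 0.10, adjusted p = 1.64e-09). In PWD it was listed at 0 or near 0 throughout: 0.051, 0.0396, 0 and 0 TPM untreated and 0, 0.0267, 0 and 0.0179 TPM with LPS. The same held for Trim5, at 0 TPM in all 4 untreated PWD cultures and at most 0.0242 TPM in treated ones. Trim5 was at 4.19, 3.53, 3.16 and 4.44 TPM in untreated B6 cells and 2.96, 3.4, 2.84 and 2.72 TPM after LPS, and its direction in B6 turned with the scaling, from -0.27 on TPM as deposited to 0.16 by median-of-ratios and 0.30 by quantile normalization. Over the Trim12 copies together the means rose from 40.4 to 89.5 TPM in B6, from 30.2 to 63.7 TPM in C57 and from 7.79 to 20.7 TPM in PWD, and nearly all of the PWD sum was Trim12c.

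Trim34a and Trim34b showed the opposite division between strains. Trim34a had 22.4, 19.5, 18.9 and 26.7 TPM in untreated B6 cells and 39.3, 38.8, 41.5 and 36.6 TPM after LPS. In C57 it had 15.3, 17.7, 14.6 and 16.2 TPM and then 38.9, 40.3, 42.8 and 45.4 TPM. In PWD it had 0.91, 1.19, 1.43 and 1.2 TPM and then 4.53, 6.22, 5.99 and 4.52 TPM. Its changes were 0.82, 1.34 and 1.53 (SE 0.11 in each), and every PWD culture was below every culture of the other strains. Trim34b, at most 0.225 TPM in all B6 and C57 cultures, was expressed in PWD at 2.13, 3.04, 2.71 and 2.35 TPM untreated and 10.8, 13.4, 12.6 and 12.9 TPM with LPS, a change of 1.92 (SE 0.11, adjusted p = 2.98e-14). Since these copies share much of their sequence, their sum is given as well: it rose from 22 ± 3.56 to 39.2 ± 2.05 TPM in B6, from 16.1 ± 1.3 to 42.1 ± 2.88 TPM in C57 and from 3.74 ± 0.554 to 17.7 ± 1.87 TPM in PWD (SD, n = 4). Trim34a and Trim5 lie next to each other on opposite strands, and the sources used here do not say how strand was treated in the counting. Of the cluster's other members, Trim6 had group means of 1.38 to 3.36 TPM and Trim68 of 1.02 to 2.54 TPM. On TPM as deposited Trim6 was called after LPS in no strain, and Trim68 was called lower in all 3. Under median-of-ratios scaling and quantile normalization Trim6 was called higher in all 3 strains and Trim68 in none.

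**Figure D2:**
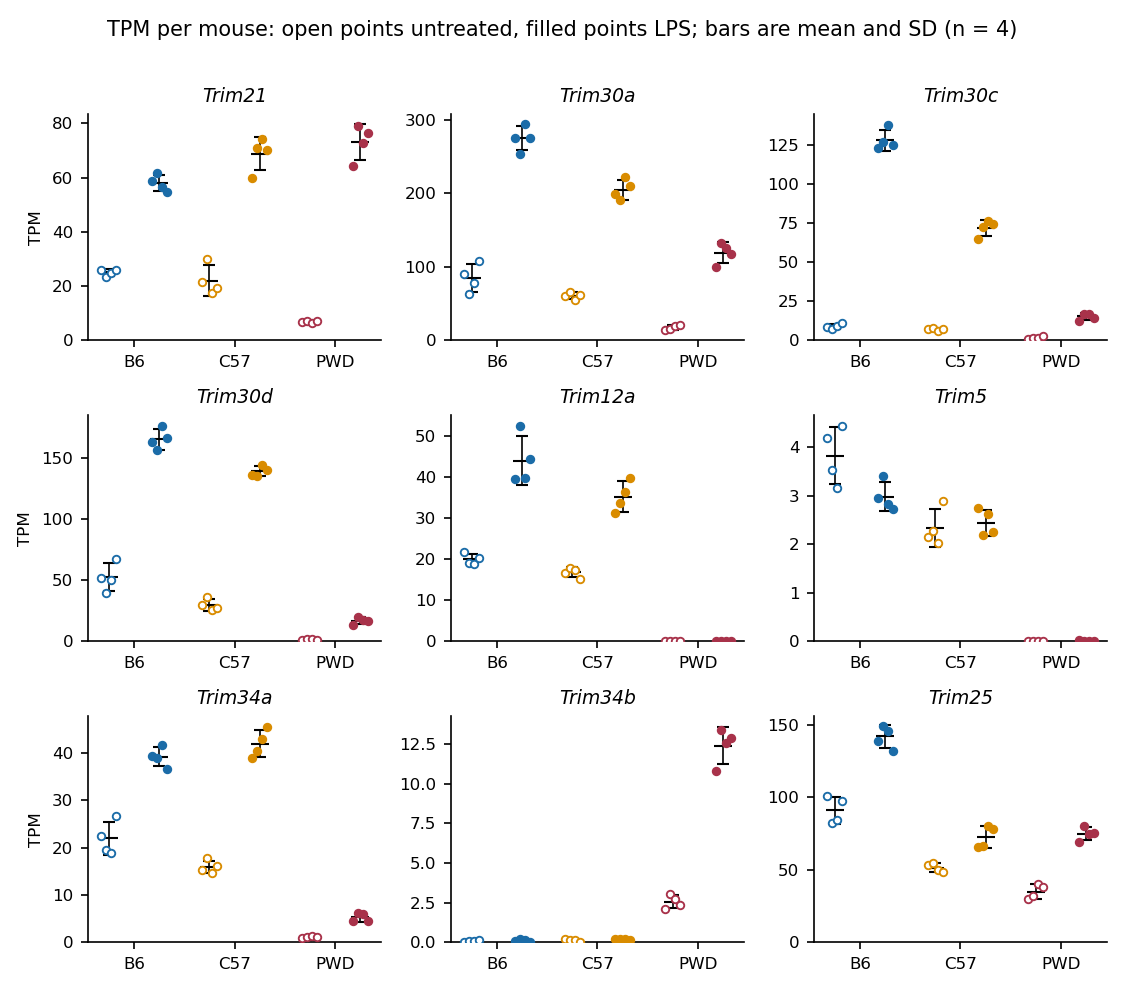
TPM of 9 Trim members in each library (open points untreated, filled points LPS; 4 mice per group), with the mean and SD as black bars, by strain on the horizontal axis; each vertical axis starts at 0. In PWD, Trim12a and Trim5 lie at or near 0 and Trim34b is expressed, while Trim21 goes from the lowest untreated to the highest mean treated level.

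Outside that cluster, PRY-SPRY members with known parts in the sensing of viral RNA rose too. Trim25, the ligase best known for adding ubiquitin chains to RIG-I, was the most abundant of them. It stood at 101, 82.2, 84.1 and 97.3 TPM in untreated B6 cells and at 139, 149, 146 and 132 TPM after LPS. In C57 it went from 53.2, 54.5, 50.1 and 48.4 TPM to 66, 66.6, 79.9 and 78.1 TPM. In PWD it went from 29.7, 31.8, 40 and 38.4 TPM to 69.3, 80.2, 75 and 75.1 TPM. Treated C57 and PWD cultures lay below all untreated B6 cultures, whose lowest value was 82.2 TPM. Trim25 changed by 0.63, 0.48 and 1.09 (SE 0.10 in each) in B6, C57 and PWD.

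Trim14, a mitochondrial adaptor of the MAVS pathway, rose from a mean of 38.2 ± 7.35 to 66.5 ± 2.75 TPM in B6, from 35.9 ± 3.26 to 60.2 ± 11.6 TPM in C57 and from 11.3 ± 1.35 to 31.4 ± 5.06 TPM in PWD (SD, n = 4). Its changes were 0.80, 0.71 and 1.40 (SE 0.13 in each). In C57 the treated mice numbered 1 and 2 had 48.7 and 52.3 TPM and those numbered 3 and 4 had 73.3 and 66.6 TPM, and with mice 1 and 2 alone the change was 0.43 and the call was lost (limma, adjusted p = 0.0622). Trim26, which lies in the MHC region and is known to act on IRF3, went from 26 to 48.7 TPM in B6, from 23.7 to 46.8 TPM in C57 and from 13.2 to 23 TPM in PWD, changes of 0.88, 0.96 and 0.77. Of the PRY-SPRY members outside that cluster and the MHC region, Trim14 and Trim25 included, 11 were tested. The 2 that rose in each strain were Trim14 and Trim25, while 7 fell in B6, 7 in C57 and 8 in PWD. Of all symbols 11.9%, 10.4% and 11.1% were called higher and 59.7%, 52.2% and 52.4% lower. By median-of-ratios scaling those higher and lower were 3 and 6 in B6, 4 and 4 in C57, and 2 and 5 in PWD.

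Of the members with a transmembrane segment or another C-terminus, 9 were tested: 2 rose in each strain, and 6 fell in B6, 5 in C57 and 6 in PWD, against 2 and 4, 3 and 1, and 2 and 3 by median-of-ratios scaling. Again the share of all symbols called lower was 59.7% in B6, 52.2% in C57 and 52.4% in PWD, so with so few members these counts say little about the groups. Trim56, a ligase linked to STING and to double-stranded DNA sensing, was at 19.7, 12.8, 12.7 and 15.9 TPM in untreated B6 cells and 26.5, 23.5, 27.2 and 21.5 TPM after LPS. It went from 12.2, 14.3, 12.3 and 11.1 TPM to 24.3, 25.8, 31 and 29.5 TPM in C57, and from 8.14, 9.54, 12.2 and 11.4 TPM to 25.6, 33.8, 31.8 and 30.9 TPM in PWD. The treated cultures of the 3 strains overlapped, and the untreated mean was lowest in PWD. The changes of Trim56 were 0.67, 1.08 and 1.49 (SE 0.13 in each). Trim13, anchored in the endoplasmic reticulum, rose by 0.23 in B6 (adjusted p = 0.0321), 0.57 in C57 and 0.45 in PWD. In B6 its groups overlapped, at 9.86 to 11.9 TPM and 11.5 to 14.1 TPM, and the call was lost without any of B6 LPS mice 1 or 3 or untreated mice 1, 3 or 4, with adjusted p of 0.0514 to 0.111 (limma). With the replicate number as a block the change was again 0.23 and was not called (limma, adjusted p = 0.0501), nor was it with mice 1 and 2 alone (0.19, adjusted p = 0.201) or in a fit of the B6 groups only (adjusted p = 0.0587). Trim36, the one tested member with a COS box, a microtubule-binding segment, went from 18.2 to 26.6 TPM in B6, from 10.4 to 15.6 TPM in C57 and from 4.34 to 8.29 TPM in PWD.

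Among the members that fell was Trim28, or KAP1, the co-repressor that zinc finger proteins bring to retroelements. It went from 69.5, 69.6, 51.7 and 71.2 TPM to 37.3, 35.2, 37.1 and 34.3 TPM in B6, from 92.4, 83.7, 74.3 and 77.4 TPM to 51.8, 49.7, 58.4 and 54.9 TPM in C57, and from 81.3, 87.8, 97.9 and 101 TPM to 46.4, 45.6, 39.8 and 47.1 TPM in PWD. No treated culture reached an untreated one of its strain. Trim28 fell by 0.84 in B6, 0.60 in C57 and 1.02 in PWD on the log2 scale (SE 0.10 in each), and by median-of-ratios scaling its values were -0.29, -0.24 and -0.65. All 3 tested members with a PHD finger and bromodomain fell in B6, 2 in C57 and 1 in PWD, beside 59.7%, 52.2% and 52.4% of all symbols, while median-of-ratios scaling left 2 lower in B6 and 1 higher and 1 lower in C57 and in PWD.

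Trim59, a transmembrane member, fell from 10.3 to 3.26 TPM in B6, from 12 to 4.61 TPM in C57 and from 13 to 7.23 TPM in PWD, changes of -1.40, -1.21 and -0.75 (SE 0.13 in each). The corresponding values by median-of-ratios scaling were -0.94, -0.88 and -0.40. Trim65, known as a ligase of the RNA sensor MDA5, was low throughout and fell from 3.27 to 0.964 TPM in B6, from 4.47 to 2.29 TPM in C57 and from 2.24 to 1.13 TPM in PWD. Its changes were -1.12, -0.74 and -0.60 (SE 0.12 in each), and -0.80, -0.46 and -0.36 by median-of-ratios scaling. In B6 the other large falls were those of Trim7 (-1.38, SE 0.15) and Trim47 (-1.30, SE 0.16). Trim27, a nuclear ligase, had -0.88, -0.42 and -0.94 in B6, C57 and PWD, but in C57 -0.07 by median-of-ratios scaling, where it was not called (limma, adjusted p = 0.343). Of the 3 tested NHL-repeat members, 2 fell in B6, 3 in C57 and 2 in PWD on TPM as deposited (of all symbols 59.7%, 52.2% and 52.4%), and 0 in each strain by median-of-ratios scaling or quantile normalization.

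**Figure D3:**
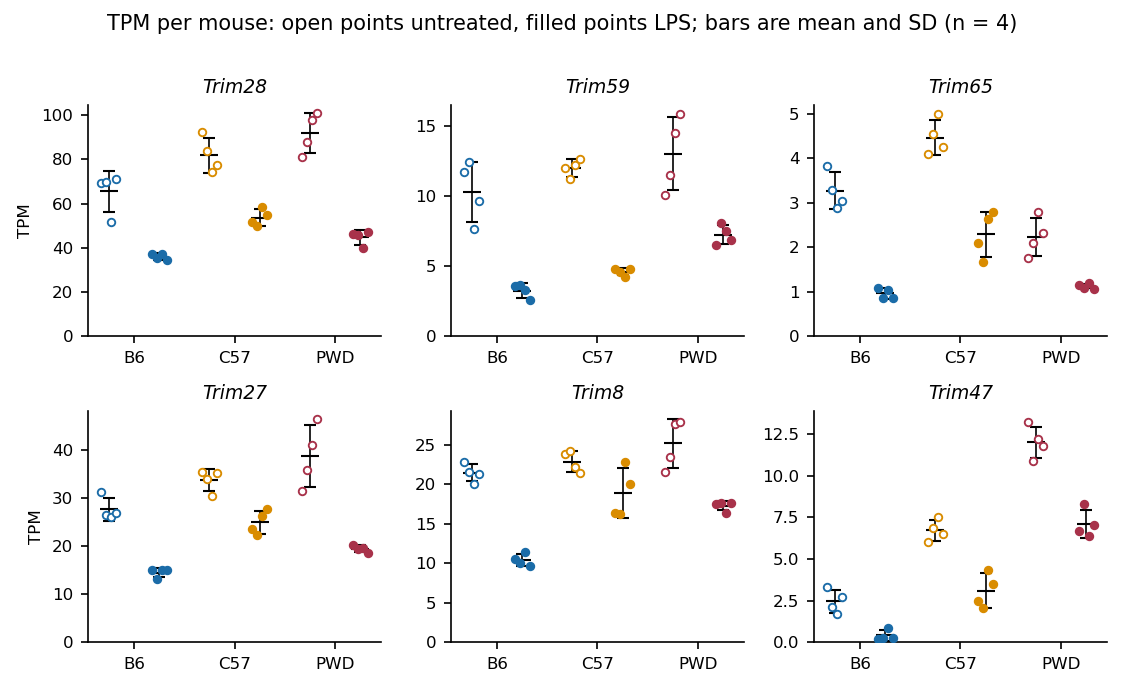
TPM of 6 Trim members that were lower after LPS (open points untreated, filled points LPS; 4 mice per group), with the mean and SD as black bars, by strain on the horizontal axis; each vertical axis starts at 0. Trim28 falls in all 3 strains without overlap, and Trim47 is lowest in B6 in both conditions.

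Set beside the promoter letters, 7 of the 12 members that rose in B6 and have a RefSeq promoter held a GAAANNGAAA match, as did 7 of 12 in C57 and 6 of 12 in PWD. Of those that fell, 1 of 15 held one in B6, 1 of 13 in C57 and 0 of 13 in PWD. Of those not called it was 1 of 4 in B6, 1 of 6 in C57 and 3 of 6 in PWD. The PWD members without a call included Trim12a and Trim5, whose stretches above share their letters with each other in the reference genome. Trim13, Trim25, Trim30b, Trim30c and Trim56 rose with no match in the window, as did Trim34b in PWD. Copies with alike stretches count separately here. The calls are those on TPM as deposited, and the fallen members among them depend on the scaling. Trim2, with a match, was low in all groups, at means of 0.131 to 1.01 TPM, and did not rise in any strain.

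In untreated cells, 11 members were higher and 17 lower in PWD than in B6, strains that also differed in the summed markers of macrophages and of eosinophils, mast cells and basophils given above, whose part was not tested. Over all symbols 37.2% were higher and 19.7% lower, beside 26.8% and 41.5% of the members. With median-of-ratios scaling 10 were higher and 21 lower, beside 32% and 29.9% of all symbols, and with quantile normalization 9 and 24, beside 30.8% and 32.3%. Trim34b and Trim45 reached 1 TPM in PWD libraries alone and Trim29 in C57 libraries alone, so they entered the fit through the strain where they are high. Trim12a and Trim5 were at 0 or near 0 in PWD and entered it through B6 and C57. Counts and medians between strains include all these members. Their differences between a strain where they are high and one where they are not are given as descriptions with no test. In the chromosome 7 group 9 of 12 were lower and 1 was higher, with a median of -1.81 beside 0.14 over all symbols. Trim30d differed by -4.37 (SE 0.13, adjusted p = 2.35e-20), Trim34a by -3.38 (SE 0.11, adjusted p = 8.05e-20), Trim30a by -2.22 (SE 0.13, adjusted p = 2.47e-14) and Trim21 by -1.74 (SE 0.11, adjusted p = 2.76e-13). Trim30c, Trim14, Trim25, Trim12c and Trim26 were lower too, by values of -1.87, -1.66, -1.36, -1.29 and -0.94. None of these overlapped between the strains. For Trim12a and Trim5, listed at 0 or near 0 in PWD, the fitted differences of -4.36 and -2.26 rest on the pseudocount and became -7.38 and -5.28 with 0.1 TPM in place of 1 TPM. Trim34b had a fitted difference of 1.71. Higher in PWD was Trim47, which had 3.3, 2.15, 1.72 and 2.75 TPM in B6 and 13.2, 10.9, 12.2 and 11.8 TPM in PWD, a difference of 1.92 (SE 0.16, adjusted p = 5.12e-11).

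After LPS, 18 members were higher and 15 lower in PWD than in B6, beside 49.7% and 19% of all symbols. Median-of-ratios scaling gave 11 higher and 15 lower, beside 36.2% and 33.6% of all symbols, and quantile normalization 10 and 21, beside 35.7% and 33.4%. The chromosome 7 group again had 8 of 12 members lower, with a median of -1.34 beside 0.28 over all symbols, and 2 higher. Trim30d differed by -3.23, Trim30c by -3, Trim34a by -2.68, Trim30a by -1.21 and Trim12c by -1.10, all without overlap. Outside the group Trim14 (-1.07), Trim26 (-1.05) and Trim25 (-0.91) were lower. Trim12a differed by -5.47 and Trim5 by -1.98, again against PWD levels listed at 0 or near 0. Trim47 was higher by 2.53. The fitted difference of Trim34b was 3.59, or 5.99 with a pseudocount of 0.1 TPM. For Trim21, a difference of 0.33 on TPM as deposited (adjusted p = 0.0121) became 0.01 by median-of-ratios scaling (adjusted p = 0.972), 0.25 by quantile normalization (adjusted p = 0.0825) and 0.24 with mice 1 and 2 alone (limma, adjusted p = 0.192).

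**Figure D4:**
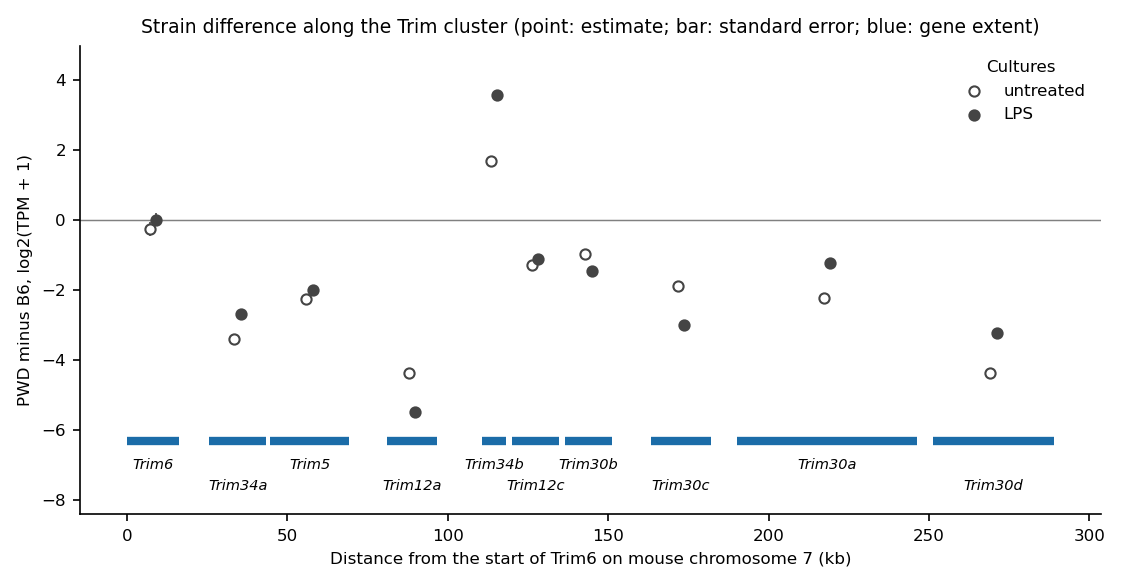
Difference of PWD from B6 in log2(TPM + 1) along the Trim cluster of chromosome 7, untreated (open points) and with LPS (filled points), against distance in kilobases from the start of Trim6; blue bars are the gene extents, and standard errors are mostly shorter than the points. From Trim34a to Trim30d, Trim34b is the one gene above 0.

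A sum over copies does not depend on how reads were divided within it, but the Trim12 sum holds Trim12a and Trim12c only, and Trim12c shared 24.2% of its windows with Trim5. In untreated cells PWD was below B6 by -2.69 (SE 0.13, adjusted p = 5.06e-16) for the Trim30 copies, -2.25 (SE 0.10, adjusted p = 9.82e-17) for the Trim12 copies and -2.27 (SE 0.11, adjusted p = 2.05e-16) for the Trim34 copies. With LPS these differences were -1.91, -2.06 and -1.10. All members together summed to a mean of 716 TPM in untreated B6, 649 TPM in C57 and 467 TPM in PWD, and to 1260, 1100 and 670 TPM with LPS.

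C57 was compared with B6 in the same way. Untreated, 12 members were higher and 9 lower in C57, beside 31.9% and 6.92% of all symbols, and 7 and 19 with median-of-ratios scaling (20.1% and 19.6% of all symbols) or 8 and 19 with quantile normalization (21.5% and 18.9%). Without untreated B6 mouse 3, 7 were higher. With LPS, 20 were higher and 6 lower, beside 49.1% and 9.69% of all symbols, and 11 and 17 or 11 and 14 under those scalings, beside 27.5% and 29.7% or 30.3% and 24.2%. Trim25 was the clearest of the lower members, at -0.80 (SE 0.10, adjusted p = 2.49e-07) untreated and -0.96 (SE 0.10, adjusted p = 4.61e-09) with LPS. Trim12c had -0.57 and -0.67, and Trim30a -0.46 and -0.42. The untreated Trim30a groups of C57 and B6 overlapped, and with mice 1 and 2 alone its difference was -0.27 (limma, adjusted p = 0.254). Trim30d was lower by 0.78 on the log2 scale in untreated C57 cells, or 0.46 with mice 1 and 2 alone (limma, adjusted p = 0.0936), and Trim30c differed by -0.83 with LPS.

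Higher in C57 than in B6 were Trim47, by 1.17 untreated and 1.53 with LPS, and Trim13, by 0.57 and 0.91. Trim29, a member without a RING finger, had 3.16, 2.21, 3.28 and 2.79 TPM in untreated C57 cells, against 0.61, 0.355, 0.605 and 0.759 TPM in B6 and at most 0.34 TPM in PWD. Its fitted difference of C57 from B6 was 1.28, with no test for the reason given above. With LPS, Trim41 and Trim8 were higher in C57 by 1.30 and 0.79. For Trim47 the order of the means was PWD (12 TPM), C57 (6.72 TPM) and B6 (2.48 TPM) in untreated cells, and no library of one strain overlapped another.

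Between PWD and C57 the untreated cells differed in 5 members higher and 19 lower in PWD, beside 20.1% and 26.2% of all symbols, or 9 and 19 with median-of-ratios scaling (27.9% and 27.1% of all symbols) and 9 and 21 with quantile normalization (25.6% and 30.8%). With LPS 6 were higher and 20 lower, beside 24.4% and 29.8%, or 11 and 20 and 7 and 21 under those scalings, beside 33.5% and 30% and 29.4% and 33.8%. Untreated, Trim30d differed by -3.59, Trim34a by -2.96, Trim30a by -1.76, Trim14 by -1.59 and Trim21 by -1.54, and Trim34b by 1.67. With LPS, Trim30d differed by -2.98, Trim34a by -2.77 and Trim30c by -2.18, and Trim34b by 3.48. The comparisons of PWD with B6 and with C57 share the PWD libraries.

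The difference of LPS responses between strains was tested as an interaction. Between PWD and B6 it was called for 15 members with a higher response in PWD and 3 with a lower one, beside 16% and 7.5% of all symbols, or 36.6% and 7.32% of members. Median-of-ratios scaling gave 15 and 8, beside 15.2% and 16.6% of all symbols, and quantile normalization 16 and 8, beside 17.5% and 14%. Mice 3 and 4 alone gave 5 with a higher response, and TPM without structural RNA 23. Without untreated PWD mouse 1 or 2 the lower ones were 5. The share of all symbols called is given only for TPM as deposited, median-of-ratios scaling and quantile normalization. Counts under other alternatives, here and elsewhere, therefore say nothing about the members in particular. Trim21 led with 2.07 (SE 0.16, adjusted p = 3.07e-10), with untreated means of 6.76 TPM in PWD and 25 TPM in B6 and treated means of 73.2 and 58 TPM. Trim34b had 1.88, which restates its change of 1.92 in PWD, since B6 had almost no transcript to change. Trim30d (1.14, SE 0.19), Trim30a (1.01, SE 0.18), Trim56 (0.81, SE 0.19) and Trim34a (0.71, SE 0.16) were higher in response too, and the untreated mean of each was lower in PWD. The responses of Trim14 and Trim25 were higher by 0.60 and 0.45 (adjusted p = 0.0194 and 0.016). With mice 3 and 4 alone these became 0.36 and 0.31 and were not called (limma, adjusted p = 0.175 and 0.13), nor was Trim34a (0.66, adjusted p = 0.0684) or Trim8 (0.47 with all mice, 0.23 with those, adjusted p = 0.351). The call for Trim14 was also lost without untreated B6 mouse 1 or treated PWD mouse 2 (limma, adjusted p = 0.0564 and 0.056).

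Trim30c went the other way, with a response lower in PWD by 1.13 on the log2 scale (SE 0.19, adjusted p = 8.55e-05), as did Trim12a, at -1.11, listed at 0 or near 0 in PWD. With 0.1 TPM as the pseudocount the difference for Trim30c was -0.73. Within the Trim30 family the copies therefore differed: the response of Trim30a and Trim30d was higher in PWD and that of Trim30c lower, under all 3 scalings. Summed, the Trim30 copies had a response higher in PWD by 0.78 (SE 0.18, adjusted p = 0.00254), the Trim34 copies by 1.17 (SE 0.15, adjusted p = 1.67e-06) and the Trim12 copies by 0.18 (SE 0.14, adjusted p = 0.384). The last of these was -0.02 by median-of-ratios scaling (limma, adjusted p = 0.884), but was called at 0.49 by quantile normalization (adjusted p = 8.18e-05) and at 0.29 without structural RNA (adjusted p = 0.0248).

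**Figure D5:**
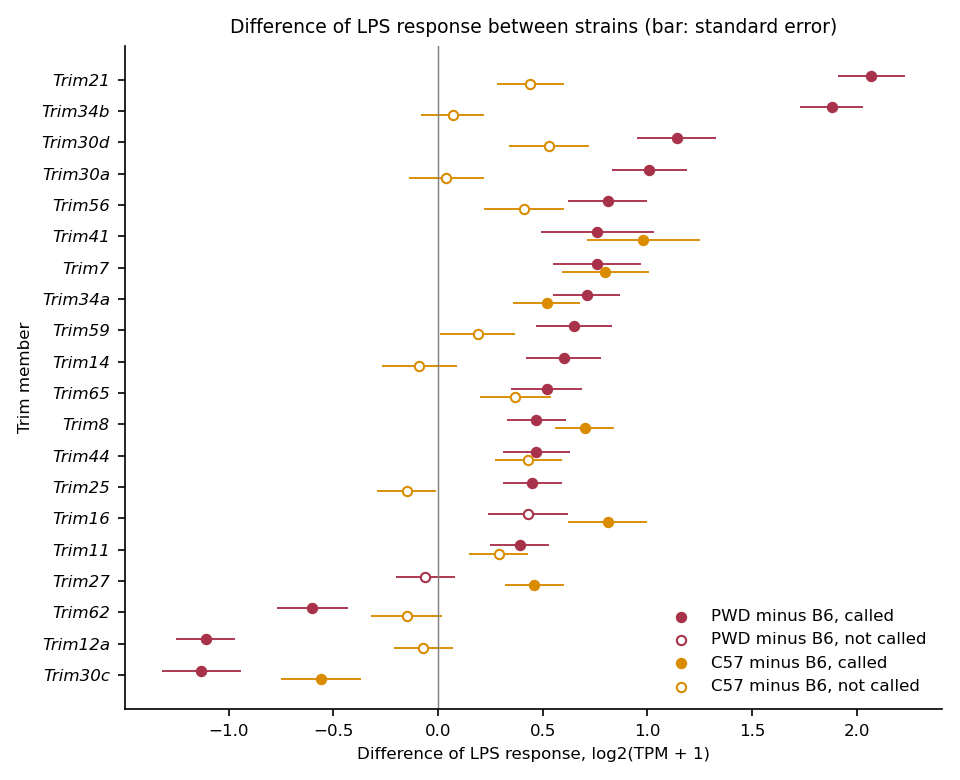
Difference of the LPS response from that of B6, in log2(TPM + 1) with its standard error, for PWD (red) and C57 (orange), in the members called for either; filled points are called at an adjusted p under 0.05. Trim21 and Trim34b lie farthest to the right for PWD only, and Trim41, Trim7 and Trim8 lie right of 0 for both.

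Between C57 and B6 the response differed in 6 members higher in C57 and 1 lower, beside 10.9% and 3.39% of all symbols, or 7 and 4 by median-of-ratios scaling (10.6% and 14.9% of all symbols) and 9 and 1 by quantile normalization (11.3% and 9.2%). The higher ones numbered 19 without structural RNA and 3 with mice 1 and 2 alone. Those reported here are Trim41 (0.98, SE 0.27, adjusted p = 0.0178), Trim16 (0.81, SE 0.19, adjusted p = 0.00419), Trim7 (0.80, SE 0.21, adjusted p = 0.00883) and Trim8 (0.70, SE 0.14, adjusted p = 0.00125). Trim8 is known to act on the kinase TAK1 and on SOCS1. Its levels went from 22.9, 21.6, 20.1 and 21.3 TPM to 10.5, 10, 11.5 and 9.7 TPM in B6, but from 23.9, 24.2, 22.2 and 21.5 TPM to 16.4, 16.2, 22.9 and 20 TPM in C57. Treated and untreated C57 cultures thus overlapped, and those of B6 did not. Trim41 fell from 17.6, 13.4, 17.6 and 12.7 TPM to 12.3, 11, 5.44 and 7.56 TPM in B6, and in C57 had 21.7, 19.6, 18.8 and 16.6 TPM and then 16.3, 23.3, 24.5 and 28.9 TPM. The difference for Trim41 was 0.29 with mice 1 and 2 alone (limma, adjusted p = 0.516), and those for Trim16 and Trim7 were 0.68 and 0.61 with mice 3 and 4 alone (limma, adjusted p = 0.0707 and 0.136). The 1 lower member was Trim30c, whose call was lost when any of 14 of the 16 libraries of the 2 strains was left out, untreated B6 mouse 4 and untreated C57 mouse 3 being the exceptions.

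Between PWD and C57 the response was higher in PWD for 6 members and lower for 3, beside 5.41% and 5.99% of all symbols, or 9 and 8 by median-of-ratios scaling (11.5% and 10.1% of all symbols) and 10 and 10 by quantile normalization (11.5% and 10.7%). Without structural RNA they were 10 and 6, with mice 1 and 2 alone 10 and 1, and with mice 3 and 4 alone 3 and 7. Without untreated PWD mouse 1 the lower ones were 6. Trim34b had 1.81, again a description. Trim21 had 1.63 (SE 0.16, adjusted p = 4.36e-08), Trim30a 0.97 (SE 0.18, adjusted p = 0.000505), Trim14 0.68 (SE 0.18, adjusted p = 0.0144) and Trim25 0.60 (SE 0.14, adjusted p = 0.00321). With mice 3 and 4 alone Trim14 and Trim25 were not called, at 0.25 and 0.25 (limma, adjusted p = 0.312 and 0.195). Trim12a (-1.04) and Trim27 (-0.52) had the lower response in PWD, the latter -0.16 with mice 1 and 2 alone (limma, adjusted p = 0.478). Since Trim12a was listed at 0 or near 0 in PWD, its value mirrors its change in C57.

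Mice of different numbers were not alike in every group. In untreated PWD cells the mice numbered 1 and 2 had Trim59 at 10.1 and 11.5 TPM and those numbered 3 and 4 at 14.5 and 15.8 TPM. Trim27 was at 31.6 and 35.9 TPM and then 41.1 and 46.4 TPM, and Trim25 at 29.7 and 31.8 TPM and then 40 and 38.4 TPM. All 3 were higher in the second pair. In the same libraries structural RNA took 40.3% to 41.9% of TPM in mice 1 and 2 and 28.8% to 29.3% in mice 3 and 4. Among treated C57 cells it took 39.9% to 41.2% and 31.6% to 33.4%, and there Trim8 and Trim14 were higher in mice 3 and 4. The part of that RNA in these values was not tested beyond removing it from the TPM, which changed the number of members with a called response difference of PWD from B6 from 15 to 23 on the higher side. How the share of all symbols changed with that removal is not given.

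Other parts of the pathway were followed in lists not picked for how their genes moved. Of the tripartite motif proteins with names of their own, 3 of 6 were tested. Pml, which forms nuclear bodies and is a classical interferon-induced gene, rose from 18.9 to 54.1 TPM in B6, 16.7 to 45.8 TPM in C57 and 6.25 to 18.9 TPM in PWD, changes of 1.47, 1.39 and 1.47. Mefv, which encodes pyrin, rose by 1.39, 0.95 and 1.68. The third, Mid1, went from 8.59 to 5.85 TPM in B6, 4.17 to 4.02 TPM in C57 and 2.91 to 2.31 TPM in PWD. It was called lower in B6 alone, and in no strain by median-of-ratios scaling. All 3 genes were lower in untreated PWD cells than in B6, beside 19.7% of all symbols.

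All 20 genes of the nucleic acid sensing and signalling pathways on which Trim proteins act were tested, and 10 rose and 5 fell in B6, 9 and 4 in C57, and 10 and 3 in PWD, where 11.9% and 59.7%, 10.4% and 52.2%, and 11.1% and 52.4% of all symbols did so. By median-of-ratios scaling those higher and lower were 15 and 2, 14 and 2, and 16 and 2, beside 30.8% and 30.7%, 24.5% and 26.9%, and 27.1% and 26.2% of all symbols. Medians were 0.28, 0.19 and 0.26. Ddx58, which encodes RIG-I, the target of Trim25, went from 58.7 to 190 TPM in B6, 51 to 162 TPM in C57 and 12 to 107 TPM in PWD. Irf7, the transcription factor that amplifies type I interferon, changed by 3 in B6, 2.38 in C57 and 4.29 in PWD (SE 0.12 in each). The adaptor Mavs fell by 1.06, 0.74 and 0.90 on the log2 scale, and Sting1 by 0.85, 0.85 and 0.93, and both were called lower under the other scalings too. In untreated cells 13 of the 20 were lower in PWD than in B6 and 2 were higher, beside 19.7% and 37.2% of all symbols. Median-of-ratios scaling and quantile normalization each gave 14 lower and 1 higher, beside 29.9% and 32% or 32.3% and 30.8% of all symbols. Irf7 had a mean of 2.52 TPM in untreated PWD and 50.2 TPM in untreated B6 cells. Of 10 ubiquitin-conjugating enzymes, which supply RING ligases, 1 rose in each strain: Ube2l6, a partner in interferon-induced conjugation of ISG15, by 2.33, 1.70 and 2.26. Of the rest 3 fell in B6, 2 in C57 and 3 in PWD on TPM as deposited, but by median-of-ratios scaling 0 of the 10 were lower, and 9, 6 and 6 were higher, beside 30.8%, 24.5% and 27.1% of all symbols called higher. By quantile normalization those higher and lower were 3 and 2, 2 and 4, and 3 and 1.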

How the data were processed

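RNA of 24 bone-marrow-derived cultures was measured by RNA-seq. The authors deposited TPM, a unit that sums to 1000000 in each library. STAR, edgeR and mm10 stand, without versions, in the submitters' processing notes. The gene annotation, the read counter and how TPM were made are not given in the sources used. Read depth cannot be had from TPM, so no counting error or interval is given. Lines were summed by symbol (217 of 55401 lines carried a repeated symbol), leaving 55291 symbols, and the 24 columns were matched to samples by name.

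The 13246 symbols that reached 1 TPM in 4 libraries or more were taken as log2(TPM + 1). A limma model (version 3.58.1, R 4.3.3) with a mean for each of the 6 groups and 18 residual degrees of freedom was fitted to all 24 libraries, using robust empirical Bayes with a trend. P-values are two-sided, and the Benjamini-Hochberg adjustment covers every symbol in the fit, with a threshold of 0.05. The 12 comparisons set LPS against untreated in each strain, strain pairs in each treatment, and strain pairs in their LPS response. The fit was tested on simulated data.

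Members, lists and tests were chosen with earlier results of these data known. Test statistics were allowed for members with a group mean of 2 TPM or more: in each comparison the called members with the largest changes (up to 8 for LPS, up to 6 otherwise) and 25 fixed members. Up to 4 called genes of each other list could be named. The design text makes untreated and LPS libraries of 1 strain and number the same mouse, and their deviations from the group means correlated at r of 0.0513 to 0.176 in the 12 pairs. The alternatives tried were median-of-ratios scaling (factors 0.704 to 1.34), quantile normalization, TPM without structural RNA, a 0.1 TPM pseudocount, other filters (none, or 5 TPM), plain empirical Bayes, fits of only the groups compared, a replicate block, mice 1 and 2 or 3 and 4 alone, each library left out, a minimum absolute log2 change of 1, and summed copies. Shared 50-base windows were counted over GENCODE transcripts of mm10 and motifs over RefSeq promoters of GRCm38.p6, with Python 3.11.15 and Biopython 1.88.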

Additional observations from a re-analysis of the deposited data

Results flagged for a closer look

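In 11 of 234 groups of 4 libraries (39 members in 6 groups) 1 library stood apart from the other 3 by more than Dixon's 95% critical value, given as its gap to the nearest library over the group's range; chance gives about 1 in 20 such groups. The gap was 0.967 for Trim27 in B6 with LPS (13.1 TPM in mouse 2), 0.834 for Trim27 in untreated B6 (31.2 TPM in mouse 1), 0.911 for Trim28 in untreated B6 (51.7 TPM in mouse 3) and 0.888 for Trim47 in B6 with LPS (0.872 TPM in mouse 3). It was 0.845 for Trim68 in B6 with LPS (1.91 TPM in mouse 3) and 0.885 in untreated B6 (3.16 TPM in mouse 1). In C57 it was 0.862 for Trim23 with LPS (8.1 TPM in mouse 3), 0.93 for Trim39 and 0.84 for Trim62 with LPS, and 0.874 for Trim7 untreated (1.53 TPM in mouse 4). In PWD it was 0.897 for Trim8 with LPS (16.4 TPM in mouse 3).

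Differences of LPS response that passed the test of the difference itself were found between PWD and B6 for Trim21 (2.07), Trim34b (1.88), Trim30d (1.14), Trim30a (1.01), Trim56 (0.81), Trim34a (0.71), Trim14 (0.60), Trim8 (0.47), Trim25 (0.45), Trim12a (-1.11) and Trim30c (-1.13). Between C57 and B6 they were Trim41 (0.98), Trim16 (0.81), Trim7 (0.80) and Trim8 (0.70), and the 1 lower member, Trim30c, is described above. Between PWD and C57 they were Trim21 (1.63), Trim30a (0.97), Trim14 (0.68), Trim25 (0.60), Trim27 (-0.52) and Trim12a (-1.04). The full sets called higher and lower, with Trim34b and Trim12a counted, held 15 and 3 members for PWD against B6. They held 6 and 1 for C57 against B6, and 6 and 3 for PWD against C57. Trim34b reached 1 TPM in PWD libraries alone, so its values of 1.88 against B6 and 1.81 against C57 restate its change in PWD and are descriptions with no test. Trim12a was listed at 0 or near 0 in PWD, so its values of -1.11 against B6 and -1.04 against C57 mirror its changes in B6 and C57. They are descriptions with no test too. The comparisons share libraries, so a member named more than once is not separate evidence.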

How the results depend on the processing

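Of 133 reported comparisons of single members, 116 kept their direction and their side of the threshold under every alternative except the minimum change of 1, and 1 reversed: the change of Trim5 in B6, 0.16 by median-of-ratios scaling and 0.30 by quantile normalization. TPM keep no depth, so counting error at low values is unknown, copies may share reads, and the number of lower members moves with the scaling. With the replicate block no count of called members moved by more than 1.5 times (21 lower in B6 after LPS became 20, and 15 higher responses in PWD than in B6 became 12), and the single calls lost were those of Trim13 and Trim5 in B6.

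By median-of-ratios scaling and by quantile normalization, the lower members after LPS were 12 and 11 in B6, 6 and 6 in C57, and 9 and 9 in PWD. Under the same scalings untreated C57 had 19 and 19 lower than B6 (7 higher by median-of-ratios), untreated PWD had 9 and 9 higher than C57, PWD with LPS had 11 and 10 higher than B6, and C57 with LPS had 11 and 11 higher and 17 and 14 lower than B6. PWD with LPS had 11 higher than C57 by median-of-ratios. Lower responses numbered 8 and 8 for PWD against B6 and 8 and 10 for PWD against C57, 4 for C57 against B6 by median-of-ratios, and higher ones 10 for PWD against C57 by quantile normalization. Without structural RNA, untreated PWD had 8 higher than C57, and higher responses numbered 23 (PWD against B6), 19 (C57 against B6) and 10 (PWD against C57), with 2 lower for C57 against B6 and 6 for PWD against C57.

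With a filter of 5 TPM, 11 fell in C57 and 12 in PWD after LPS, untreated C57 had 7 and treated C57 13 higher than B6, and untreated PWD had 2 higher than C57. With mice 1 and 2 alone, 11 fell in PWD, untreated PWD had 7 higher than B6 and 3 higher than C57, untreated C57 had 7 higher and 5 lower than B6, and responses higher numbered 3 for C57 against B6 and 10 for PWD against C57, with 1 lower. With mice 3 and 4 alone, 6 fell in C57, untreated PWD had 10 higher than C57, higher responses numbered 5 for PWD against B6 and 3 for PWD against C57, and lower ones 7 for PWD against C57 and 0 for C57 against B6. That last count was also 0 in limma with a pseudocount of 0.1 TPM, with no filter, with plain empirical Bayes and with copies summed, and lower responses for PWD against B6 were 1 with copies summed.

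At a minimum absolute change of 1, higher and lower members after LPS were 7 and 6 in B6, 9 and 1 in C57, and 1 lower in PWD. For PWD against B6 they were 3 and 11 untreated and 4 higher with LPS, for C57 against B6 2 and 0 untreated and 2 and 0 with LPS, and for PWD against C57 2 and 10 untreated and 2 and 8 with LPS. Responses higher by 1 numbered 4 (PWD against B6), 0 (C57 against B6) and 2 (PWD against C57), and lower 0 (C57 against B6) and 1 (PWD against C57). Under that minimum the summed Trim30 response of PWD against B6 (0.78) and the summed Trim34 change in B6 (0.82) were no longer called.

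Leaving out 1 library gave 7 to 12 members higher in untreated C57 than B6, 3 to 5 lower responses in PWD than B6, 0 to 1 in C57 than B6 and 2 to 6 in PWD than C57. The summed Trim12 response of PWD against B6 was -0.02 by median-of-ratios scaling, and was called at 0.49 by quantile normalization and 0.29 without structural RNA. Except under median-of-ratios scaling and quantile normalization, no shares of all symbols are given for the counts of this section. Those counts describe how calls moved and not the members in particular. Why these values moved was not tested.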
